A study of Rattus norvegicus with 18 samples.

Results

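The 9 genes described here carry out the glutamate, potassium and water handling of astrocytes, and were taken by symbol from the count tables. They are the glutamate transporters Slc1a2 (GLT-1) and Slc1a3 (GLAST), glutamine synthetase (Glul), the inwardly rectifying potassium channel Kcnj10 (Kir4.1), the water channel Aqp4, the connexins Gja1 (connexin 43) and Gjb6 (connexin 30), the GABA transporter Slc6a11 (GAT-3) and the sodium pump β2 subunit Atp1b2. All 9 were found among the 17307 symbols of the astrocyte tables and among the 17327 symbols of the microglia tables. The cells were primary astrocytes and primary microglia from the cortex of wild-type Sprague-Dawley rats at postnatal day 2, both prepared from the same kind of mixed glial flask, in which microglia were shaken off and astrocytes were replated. Each cell type was studied in 3 groups of 3 libraries, namely untreated controls, an Aβ42 group and an Aβ40 group, of which the latter pair received fibrils of that peptide at 25 µM for 24 h. No group was co-cultured with neurons, and all were moved to serum-free medium before treatment. The labels do not say whether replicates came from separate animals, so that p-values measure only the spread between these libraries.

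Astrocytes surround synapses and vessels and clear what neuronal firing releases. Glutamate is taken up with sodium by Slc1a2 and Slc1a3 and is turned into glutamine by Glul, whereas GABA is taken up by Slc6a11. Extracellular potassium enters through Kcnj10 and through the sodium pump, which needs a β subunit such as Atp1b2, is spread between cells through channels made of Gja1 and Gjb6, and is accompanied by water that crosses the membrane through Aqp4. In the brain Slc1a2 becomes the main glutamate transporter as astrocytes mature, and in cultured astrocytes without neurons it is known to be low.

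The libraries held 3674043 to 19013919 counts on genes in astrocytes and 2271834 to 22274367 in microglia, and the detection limit of 3 counts corresponded to a depth-scaled count (CPM) of 0.158 to 0.817 in astrocytes and 0.135 to 1.32 in microglia. All levels below are CPM scaled by the TMM method within a cell type, unless a common scale over all 18 libraries is named, and differ between genes also with transcript length, so that levels of different genes are not compared. In the astrocyte cultures, all 12 astrocyte markers were above the limit, and their summed level was 12500 to 20310 CPM in controls, 8653 to 9125 CPM with Aβ42 and 9419 to 9916 CPM with Aβ40. With Aβ42, 9 of these 12 markers were lower, among them Vim, Gfap and S100b, and 3 were higher, including Aldh1l1 and Clu. The 12 microglial markers summed to 389 to 488 CPM in control astrocyte cultures, 25.8 to 36.1 CPM with Aβ42 and 21.9 to 25.7 CPM with Aβ40, and all 12 were lower with either fibril, with Cx3cr1 at or under 3 counts in every treated library. The 10 oligodendrocyte lineage markers summed to 2165 to 3321 CPM in controls, 1953 to 2137 with Aβ42 and 2049 to 2117 with Aβ40. Of them 5 were lower with either fibril. The 8 neuronal markers summed to 576 to 629 CPM in controls, 299 to 301 with Aβ42 and 388 to 405 with Aβ40, and 6 were lower with either fibril. The 3 ependymal markers summed to 593 to 1110 CPM in controls, 671 to 973 with Aβ42 and 833 to 1279 with Aβ40. Of these, 2 were lower with Aβ42 and 0 were called with Aβ40. The 6 fibroblast and meningeal markers summed to 187 to 276 CPM over the 9 libraries, with 2 lower and 1 higher with either fibril. RNA of microglia and of other cells was thus counted in the astrocyte cultures, and its part in the results below was not tested. The microglial markers fell there with treatment. In the microglia cultures 9 of these 12 markers were also lower with Aβ42 and 11 with Aβ40. In these bulk samples, fewer cells of a type cannot be told apart from less RNA per cell or from less RNA of the marker genes alone.

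In untreated cells, 7 of the 8 tested members were higher in astrocytes than in microglia, none was lower, and Glul was not called. Of all 11581 genes tested over the 18 libraries, 34.5% were higher and 34.2% were lower in astrocytes, at an adjusted p-value under 0.05 in edgeR's quasi-likelihood test, which is the rule for every call below. The water channel Aqp4 had the widest difference, at 1400 ± 323 CPM in astrocytes and 17.97 ± 3.78 CPM in microglia on the common scale (SD, n = 3 each), a log2 difference of 6.29 ± 0.24 (SE, adjusted p = 3.89e-14). Gja1 differed by 5.03 ± 0.24, Slc1a3 by 4.52 ± 0.13 and Atp1b2 by 4.21 ± 0.16 on the log2 scale. Slc6a11 had 380 counts in the 3 control astrocyte libraries together and 8 in the 3 control microglia libraries, of which none had more than 3, a ratio of 36.6 after scaling with a 95% interval of 18.4 to 85.3 that covers counting error only. Gjb6 was near the detection limit in both cell types, with 10 and 1 counts.

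The glutamate transporter Slc1a2 and the potassium channel Kcnj10 separated the untreated cell types far less than Aqp4 did. Slc1a2 was at 5.03 ± 1.09 CPM in astrocytes and 2.14 ± 0.40 CPM in microglia, a log2 difference of 1.22 ± 0.31 (adjusted p = 0.00174). Kcnj10 was at 28.1 ± 11.4 and 16.1 ± 1.05 CPM, a log2 difference of 0.84 ± 0.27 (adjusted p = 0.00945) that was no longer called without control astrocyte replicate 3 (adjusted p = 0.144). Glul was at 1326 ± 303 and 1261 ± 122 CPM, so that glutamine synthetase RNA did not separate the cell types (log2 difference 0.07, 95% interval -0.20 to 0.34). With scaling by library totals alone the median of all genes shifted by 0.277 in this comparison, the share of calls that were higher in astrocytes was 62.6% in place of 50.2%, and Glul was called higher in astrocytes at 0.34 (adjusted p = 0.0116). Cell type differs here also by culture and handling, which cannot be told apart from it.

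With Aβ42 fibrils, astrocytes had 1 member higher, Slc1a2, and 5 members lower, namely Slc6a11, Atp1b2, Kcnj10, Slc1a3 and Gja1, whereas Glul and Aqp4 were not called. With Aβ40 fibrils, Slc1a2 and Aqp4 were higher, the same 5 members were lower and Glul was not called. The median log2 fold change of the 8 tested members was -0.74 with Aβ42 and -0.75 with Aβ40, beside 0.00 for all 11690 tested genes in both. Among all genes tested in astrocytes, 16.5% were higher and 20.4% were lower with Aβ42, and 14.9% were higher and 18.4% were lower with Aβ40. Both comparisons share the control libraries.

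**Figure D1:**
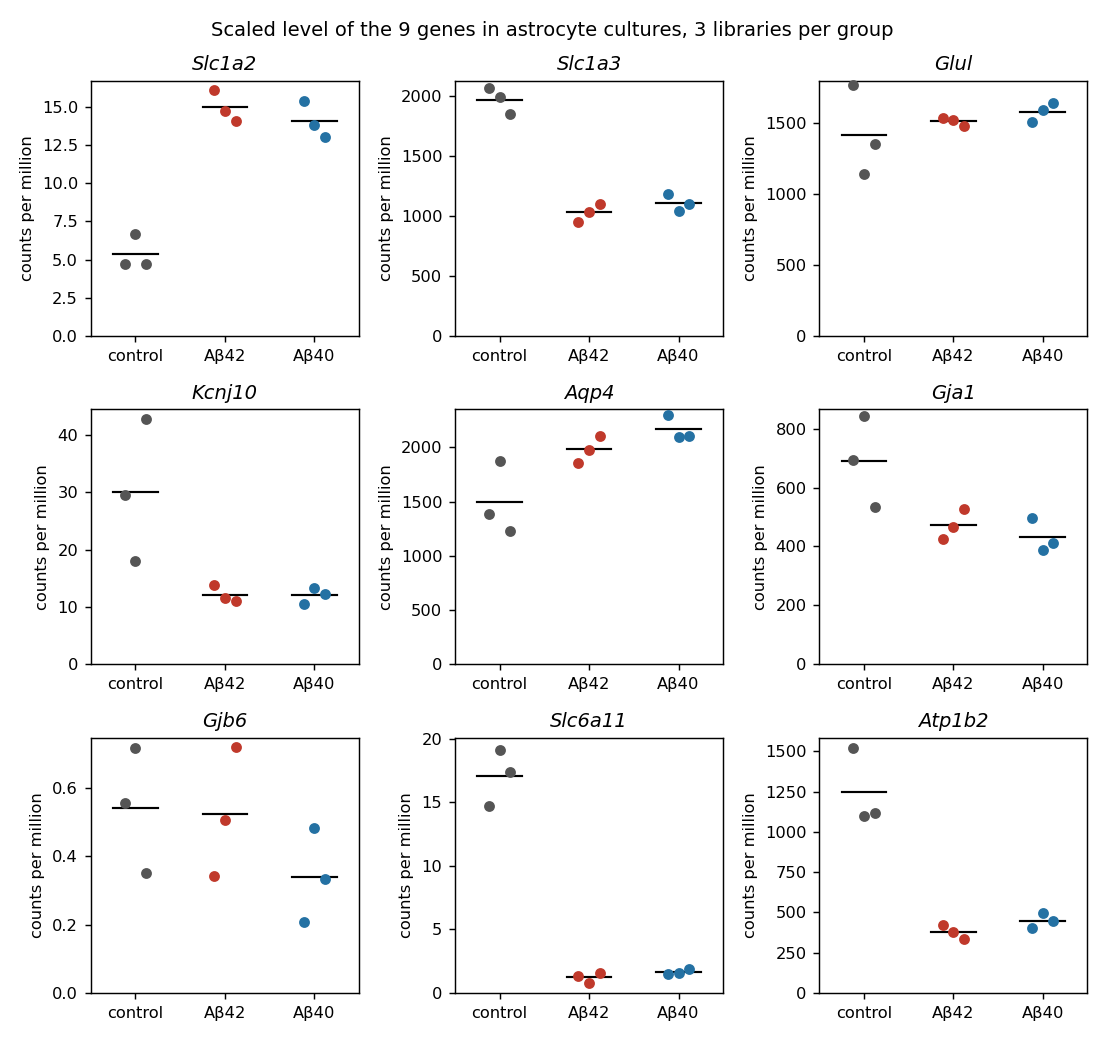
Scaled level (CPM, linear axes from 0) of each of the 9 genes in the 9 astrocyte libraries. Points are libraries and black lines are group means of 3. Slc1a2 was above every control library in all 6 treated libraries. Slc6a11, Atp1b2, Kcnj10, Slc1a3 and, narrowly, Gja1 were below every control library in all 6. The share of all genes that separated in this way is not given here.

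The main glutamate transporters moved in opposite directions. Slc1a2 was at 4.73, 6.70 and 4.71 CPM in control replicates 1, 2 and 3, at 16.1, 14.8 and 14.1 CPM with Aβ42 and at 15.4, 13.8 and 13.0 CPM with Aβ40. Every treated library was thus above every control library, with a 2.85-fold increase with Aβ42 (1.51 ± 0.18 on the log2 scale with its SE, adjusted p = 7.11e-05) and a 2.66-fold increase with Aβ40 (1.41 ± 0.18, adjusted p = 0.000126). The level remained low after treatment, since these values rest on 117 to 258 reads per treated library and 17 to 67 per control library.

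Slc1a3, the glutamate transporter with the higher expression in immature astrocytes, was at 2070, 1992 and 1851 CPM in controls, at 954, 1037 and 1098 CPM with Aβ42 and at 1181, 1038 and 1103 CPM with Aβ40. No treated library reached the lowest control, and the replicates of each group lay close together. Slc1a3 fell by 0.94 ± 0.11 on the log2 scale with Aβ42 (adjusted p = 5.67e-05) and by 0.83 ± 0.11 with Aβ40 (adjusted p = 0.000147).

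The ratio of the 2 transporters was taken within each library, where scaling has no part. Per 100 counts on Slc1a3, controls had 0.229, 0.336 and 0.255 counts on Slc1a2, Aβ42 libraries had 1.69, 1.42 and 1.28, and Aβ40 libraries had 1.30, 1.33 and 1.18. The log2 ratio was 2.31 higher in the 6 treated than in the 3 control libraries, with p = 0.0238 in a two-sided exact permutation test, the smallest this design can give. All treated libraries were above every control for Slc1a2 and below every control for Slc1a3. That separation fixed the outcome of the test, which adds no separate support. The ratio of counts is not a ratio of molecules, because the transcripts differ in length.

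**Figure D2:**
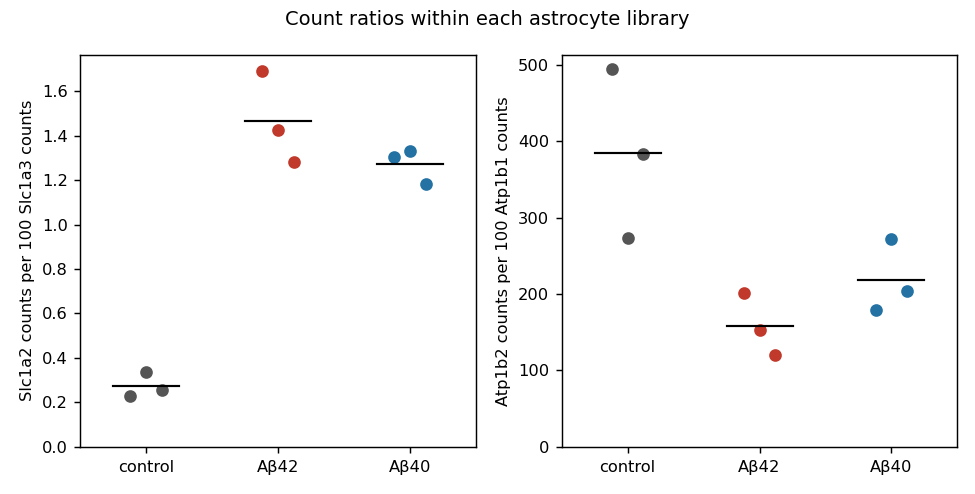
Counts on Slc1a2 per 100 counts on Slc1a3 (left) and on Atp1b2 per 100 counts on Atp1b1 (right) in each astrocyte library, with group means of 3 as black lines and axes from 0. All 6 treated libraries were at 1.18 or more on the left, above the controls at 0.229 to 0.336, and on the right the highest treated library was almost level with the lowest control, both near 273.

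Glul, which converts glutamate to glutamine in astrocytes, was at 1765, 1141 and 1350 CPM in controls. It was at 1535, 1522 and 1482 CPM with Aβ42 and at 1511, 1591 and 1638 CPM with Aβ40, inside the range of the controls. The log2 fold change was 0.09 with Aβ42 (95% interval -0.23 to 0.42) and 0.16 with Aβ40 (-0.17 to 0.48). Without control replicate 1, the library with the highest Glul, the Aβ40 value was 0.35 and passed the test (adjusted p = 0.0326).

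The GABA transporter Slc6a11 fell furthest of the 8 tested members. It was at 14.8, 19.2 and 17.4 CPM in controls, at 1.30, 0.809 and 1.56 CPM with Aβ42 and at 1.46, 1.55 and 1.86 CPM with Aβ40. The treated libraries, with 8 to 29 counts each, were near but above the detection limit. The fall was 13.9-fold with Aβ42 (log2 change -3.80 ± 0.24, adjusted p = 4.5e-07) and 10.4-fold with Aβ40 (-3.38 ± 0.22, adjusted p = 7.2e-07), and Slc6a11 was the only member past 5-fold in either comparison.

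The potassium channel Kcnj10 and the sodium pump subunit Atp1b2 were lower in all treated astrocyte libraries. Kcnj10 was at 29.5, 17.95 and 42.8 CPM in controls, at 13.8, 11.6 and 11.1 CPM with Aβ42 and at 10.6, 13.3 and 12.2 CPM with Aβ40. The controls differed among themselves by more than the treated libraries did, with a coefficient of variation of 41.3% against 11.9% and 11.4%, yet did not overlap with them. Kcnj10 fell 2.52-fold with Aβ42 (log2 change -1.33 ± 0.27, adjusted p = 0.00231) and 2.54-fold with Aβ40 (-1.35 ± 0.26, adjusted p = 0.00228). The log2 fold change lay between -1.61 and -0.95 over both fibrils when single libraries were left out, and stayed called.

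Atp1b2, which joins the α subunits of the pump and also acts in adhesion between glia and neurons, was at 1523, 1095 and 1118 CPM in controls, at 422, 376 and 336 CPM with Aβ42 and at 400.1, 496 and 449 CPM with Aβ40. The lowest control, at 1095 CPM, was far above the highest treated library, at 496 CPM. Atp1b2 fell 3.29-fold with Aβ42 (log2 change -1.72 ± 0.16, adjusted p = 9.65e-06) and 2.78-fold with Aβ40 (-1.47 ± 0.16, adjusted p = 3.24e-05). Within libraries, the counts on Atp1b2 per 100 counts on the β1 subunit Atp1b1 were 494, 273 and 384 in controls, 201, 153 and 120 with Aβ42 and 179, 273 and 204 with Aβ40. The log2 ratio was 1.03 lower in treated libraries, with p = 0.0238 in the same exact permutation test, although 1 control library and 1 Aβ40 library were almost level. The test uses the same Atp1b2 counts as the fall above and is not independent of it.

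Aqp4 was at 1389, 1876 and 1226 CPM in controls, at 1859, 1979 and 2101 CPM with Aβ42 and at 2294, 2095 and 2104 CPM with Aβ40. The Aβ40 libraries were above all controls, whereas the lowest Aβ42 library was just under the highest control. The water channel rose 1.45-fold with Aβ40 (log2 fold change 0.53 ± 0.15, adjusted p = 0.0197), and with Aβ42 its log2 fold change was 0.40 ± 0.15 (adjusted p = 0.0595). This near-threshold pair depended on single libraries, as the Aβ40 call was lost without control replicate 1 (adjusted p = 0.0573), Aβ40 replicate 1 (0.0666) or Aβ40 replicate 3 (0.0534), and Aβ42 was called without control replicate 2 (log2 fold change 0.61, adjusted p = 0.000411). The Aβ40 call was also lost in a fit of the control and Aβ40 libraries alone (adjusted p = 0.0632).

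The connexin Gja1, the main gap junction protein of astrocytes, was at 693, 842 and 533 CPM in controls, at 424, 467 and 528 CPM with Aβ42 and at 498, 387 and 411 CPM with Aβ40. All treated libraries were below all controls, but the highest treated library, at 528 CPM, was close to the lowest control, at 533 CPM. Gja1 fell by 0.54 ± 0.17 on the log2 scale with Aβ42 (adjusted p = 0.0303) and by 0.67 ± 0.17 with Aβ40 (adjusted p = 0.0117). The Aβ42 call was lost without control replicate 1 (adjusted p = 0.0825), control replicate 2 (0.0621), Aβ42 replicate 1 (0.132) or Aβ42 replicate 2 (0.094), and the Aβ40 call without Aβ40 replicate 2 (0.0629) or replicate 3 (0.061). In a fit of the control and Aβ42 libraries alone, the Aβ42 call was lost as well (adjusted p = 0.0651).

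Gjb6, the other astrocyte connexin, appears late in development in the brain and was at the edge of detection here. Its counts were 2, 3 and 5 in controls, 5, 5 and 6 with Aβ42 and 2, 9 and 5 with Aβ40, and it did not pass the filter on low counts. The ratio of the summed counts after scaling was 1.07 with Aβ42 (95% interval 0.458 to 2.65) and 0.811 with Aβ40 (0.346 to 2.00), so that a change was not detectable at this depth. Per 100 counts on Gja1 there were 0.042 to 0.137 counts on Gjb6, and the log2 ratio of treated to control libraries did not separate (difference 0.14, exact permutation p = 0.69).

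None of the 8 tested members differed between Aβ42 and Aβ40 in astrocytes, with 0 at an unadjusted p under 0.05 in edgeR's quasi-likelihood test and 0 called by DESeq2. Among all genes 0.0599% were higher and 0.0257% were lower with Aβ42 than with Aβ40. The 95% interval of the log2 difference was within 0.60 of 0 in either direction for 7 of the members and was -1.02 to 0.19 for Slc6a11. Differences within these intervals are thus not excluded. For Slc1a3 the interval was -0.345 to 0.135, and for Glul it was -0.39 to 0.26.

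**Figure D3:**
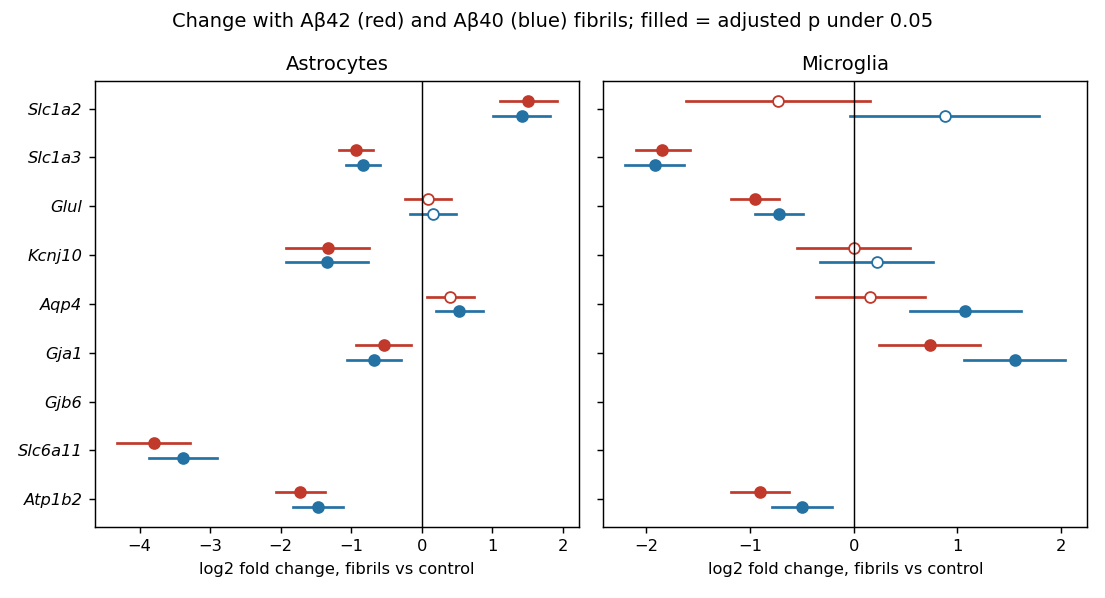
Log2 fold change of each tested member with Aβ42 (red) and Aβ40 (blue) fibrils against control in astrocytes (left) and microglia (right), with 95% intervals as lines and filled points for calls at an adjusted p under 0.05. Gjb6 and, in microglia, Slc6a11 were not tested. Slc1a2 was called higher in astrocytes alone, Gja1 was called lower in astrocytes and higher in microglia, and Slc1a3 and Atp1b2 were called lower in both.

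The sequences before the start sites of Slc1a2, which rose, and of the 4 members that fell the most in astrocytes are printed so that they can be set beside those changes, and these genes were chosen after their values were seen. They are the 250 bases upstream of the annotated start, 5′ to 3′ on the gene's strand, from RefSeq on the GRCr8 assembly, which is newer than the assembly the reads were aligned to. Capitals mark the short NFI motif TTGGC or its complement GCCAA, the GC box GGGCGG or CCGCCC and the TATA box TATAAA. NFI factors act in astrocyte differentiation, and a GC box is a common site of Sp factors.
Slc1a2, first window (chr3:109459859-109460108, plus strand): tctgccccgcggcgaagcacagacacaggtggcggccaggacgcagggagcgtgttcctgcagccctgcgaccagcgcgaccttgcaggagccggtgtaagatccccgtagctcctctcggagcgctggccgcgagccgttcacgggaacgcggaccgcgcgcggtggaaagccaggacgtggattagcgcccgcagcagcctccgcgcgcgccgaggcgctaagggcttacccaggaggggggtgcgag
Slc1a2, second window (chr3:109507697-109507946, plus strand): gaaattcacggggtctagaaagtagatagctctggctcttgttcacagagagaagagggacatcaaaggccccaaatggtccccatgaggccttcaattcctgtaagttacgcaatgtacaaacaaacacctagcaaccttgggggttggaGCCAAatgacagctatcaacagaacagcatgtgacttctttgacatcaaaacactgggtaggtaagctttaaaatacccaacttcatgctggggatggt
Slc1a3 (chr2:59557809-59558058, minus strand): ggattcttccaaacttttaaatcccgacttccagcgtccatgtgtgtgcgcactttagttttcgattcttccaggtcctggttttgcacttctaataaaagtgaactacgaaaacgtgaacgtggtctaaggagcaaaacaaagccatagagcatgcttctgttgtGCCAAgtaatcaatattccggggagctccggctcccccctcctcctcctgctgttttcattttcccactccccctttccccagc
Slc6a11 (chr4:148853307-148853556, plus strand): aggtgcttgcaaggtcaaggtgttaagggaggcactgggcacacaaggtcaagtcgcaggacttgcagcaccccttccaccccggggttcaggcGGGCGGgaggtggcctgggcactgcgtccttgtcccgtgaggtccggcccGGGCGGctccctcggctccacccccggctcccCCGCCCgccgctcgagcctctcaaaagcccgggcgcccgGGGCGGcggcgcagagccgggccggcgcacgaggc
Kcnj10 (chr13:87334260-87334509, plus strand): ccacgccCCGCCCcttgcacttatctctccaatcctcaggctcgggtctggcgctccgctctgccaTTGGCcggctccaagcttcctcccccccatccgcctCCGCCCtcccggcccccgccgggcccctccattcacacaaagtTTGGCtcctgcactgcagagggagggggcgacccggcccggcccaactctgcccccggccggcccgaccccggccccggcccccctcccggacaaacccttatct
Atp1b2 (chr10:54823709-54823958, minus strand): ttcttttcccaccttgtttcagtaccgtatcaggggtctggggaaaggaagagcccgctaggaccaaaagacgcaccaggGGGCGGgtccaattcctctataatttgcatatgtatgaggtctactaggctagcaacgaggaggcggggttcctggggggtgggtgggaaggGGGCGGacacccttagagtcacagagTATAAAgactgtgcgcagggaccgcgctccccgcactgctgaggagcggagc

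Slc6a11 held the GC box 4 times in these 250 bases, and Kcnj10 and Atp1b2 held it in 2 places each. The first Slc1a2 window had none of the marked letters and the second, which lies farther into the locus, had the short NFI motif, as did Slc1a3 and Kcnj10. Over the full windows of 300 bases, in 13 windows of 8 members (Aqp4 was not used here), the short NFI motif was in 7 windows, which belong to 5 members and overlap for Slc1a3, and it was in 45.8% of all 33469 rat windows. The GC box was in 8 of the 13 windows, of 6 members, and in 33.1% of all windows. The E-box CAGCTG was found in 1 window each of Kcnj10 and Slc1a2 (15.1% of all windows) and TATAAA in the window of Atp1b2 alone (14.2%). None of the 13 windows held the STAT motif, TTC and GAA with 3 bases between them (8.87% of all windows), the full NFI palindrome, which contains the short motif (0.0418%), or any of 3 NF-kB motifs (0.266%). Motifs were searched on both strands, and a match describes letters only.

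In microglia, Slc1a3, Glul and Atp1b2 were lower with either fibril and Gja1 was higher with either, while Aqp4 was higher with Aβ40 alone among the calls. Of 7 tested members 1 was higher and 3 were lower with Aβ42, where 27.1% of all genes were higher and 26.6% were lower. With Aβ40, 2 were higher and 3 were lower, where 19.6% and 21.4% of all genes were. The members' median log2 fold change was -0.73 with Aβ42 and 0.22 with Aβ40, beside 0.01 for all 10837 tested genes in both. With 7 members each median is the value of a single gene that was not called, Slc1a2 with Aβ42 and Kcnj10 with Aβ40. The unlike medians therefore do not show that the members as a group moved in opposite directions.

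**Figure D4:**
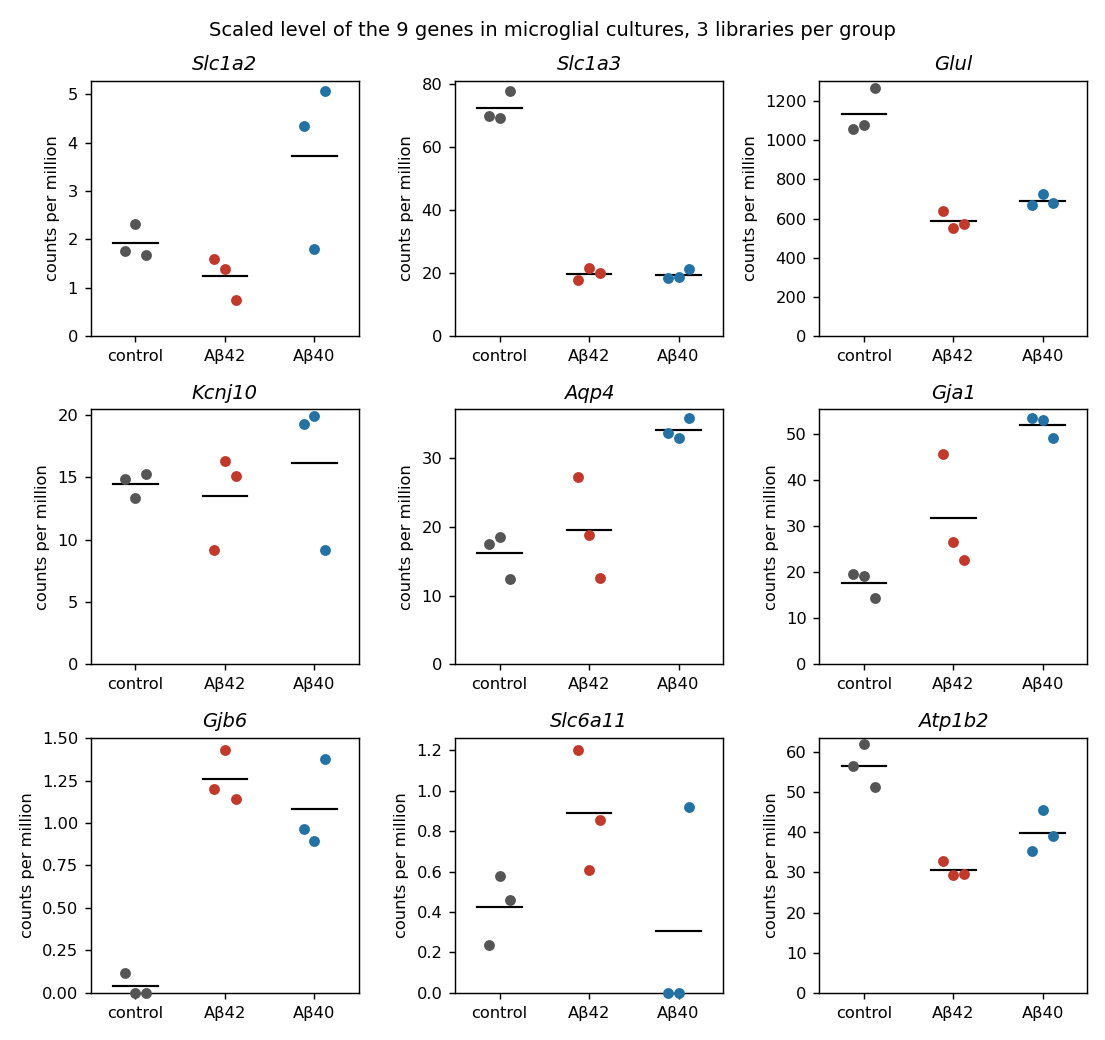
Scaled level (CPM, linear axes from 0) of each of the 9 genes in the 9 microglia libraries, with points for libraries and black lines for group means of 3. Slc1a3, Glul and Atp1b2 were below every control library in all 6 treated libraries, Gja1 and Gjb6 were above every control library, and Gjb6 and Slc6a11 stayed under 1.5 CPM throughout. The share of all genes that separated in this way is not given here.

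Slc1a3 was at 69.7, 69.0 and 77.8 CPM in control microglia, at 17.6, 21.7 and 19.8 CPM with Aβ42 and at 18.3, 18.6 and 21.1 CPM with Aβ40. The groups were far apart, and the glutamate transporter fell 3.58-fold with Aβ42 (log2 change -1.84 ± 0.12, adjusted p = 1.09e-07) and 3.77-fold with Aβ40 (-1.91 ± 0.13, adjusted p = 1.99e-07). Glul was at 1060, 1078 and 1267 CPM in controls, at 639, 553 and 573 CPM with Aβ42 and at 671, 723 and 677 CPM with Aβ40. Glutamine synthetase RNA thus fell by 0.95 ± 0.11 on the log2 scale with Aβ42 (adjusted p = 1.22e-05) and by 0.72 ± 0.11 with Aβ40 (adjusted p = 0.000159). Atp1b2 fell from 56.5 ± 5.28 CPM (SD, n = 3) to 30.6 ± 1.93 with Aβ42 (log2 change -0.90 ± 0.13, adjusted p = 8.87e-05) and to 39.9 ± 5.14 with Aβ40 (-0.50 ± 0.13, adjusted p = 0.00912). The Aβ40 call of Atp1b2 was lost without Aβ40 replicate 1 (adjusted p = 0.0559).

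Gja1 and Aqp4 were at low levels in microglia and did not follow Slc1a3. Gja1 was at 19.6, 19.1 and 14.5 CPM in controls, at 45.6, 26.6 and 22.8 CPM with Aβ42 and at 53.3, 53.0 and 49.2 CPM with Aβ40. Aβ42 replicate 1, the smallest library of its group with 2613723 counts, stood apart from the other two. Gja1 rose 2.93-fold with Aβ40 (log2 fold change 1.55 ± 0.23, adjusted p = 0.000145) and 1.66-fold with Aβ42 (0.73 ± 0.22, adjusted p = 0.0155), the latter not called without control replicate 3 (0.63, adjusted p = 0.064). Without Aβ42 replicate 1 it was 0.47 (adjusted p = 0.0036).

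Aqp4 was at 17.6, 18.5 and 12.4 CPM in control microglia, at 27.2, 18.8 and 12.5 CPM with Aβ42 and at 33.5, 32.9 and 35.9 CPM with Aβ40. It rose 2.11-fold with Aβ40 (log2 fold change 1.07 ± 0.24, adjusted p = 0.00375), while the Aβ42 libraries overlapped with the controls (0.16 ± 0.24, adjusted p = 0.598). Slc1a2, at 4 to 32 counts a library, had log2 fold changes of -0.73 ± 0.40 with Aβ42 (adjusted p = 0.147) and 0.88 ± 0.42 with Aβ40 (adjusted p = 0.117), and without Aβ40 replicate 2 the latter was 1.28 and called (adjusted p = 0.028). Kcnj10 ranged from 9.19 to 19.9 CPM over the 9 microglia libraries, and its log2 fold changes were 0.00 ± 0.25 and 0.22 ± 0.25, neither called.

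Gjb6 was almost absent from control microglia, with counts of 1, 0 and 0, and was counted in all 6 treated libraries, with 3, 33 and 20 counts for Aβ42 and 4, 4 and 3 for Aβ40. No control library held more than 1 count, and a count of 0 allows up to 0.588 and 0.451 CPM in control replicates 2 and 3. The ratio of summed counts after scaling was 26.3 with Aβ42 (95% interval 4.52 to 1055) and 20.6 with Aβ40 (2.996 to 887), where the intervals cover counting error only. In a fit without the filter on low counts, Gjb6 was called with Aβ42 (adjusted p = 0.000148) and with Aβ40 (adjusted p = 0.00266). On the common scale, treated microglia were at 1.41 ± 0.18 CPM with Aβ42 and 1.197 ± 0.28 CPM with Aβ40, beside 0.32 to 0.51 CPM in the means of the astrocyte groups. The detection limit of 3 counts was at 1.148 CPM in Aβ42 replicate 1 and at 0.731, 0.678 and 1.321 CPM in the Aβ40 libraries. Gjb6 was at or just above the limit in these libraries, so that the levels are rough. Slc6a11 had 2, 3 and 3 counts in control microglia, 3, 14 and 15 with Aβ42 and 0, 0 and 2 with Aβ40, and its ratios to control, 1.875 (95% interval 0.846 to 4.71) and 0.4685 (0.0485 to 2.35), were not distinguishable from 1 at this depth.

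Astrocyte markers were also present in the microglia cultures. The 12 markers summed to 1720 to 1914 CPM in controls, 3218 to 3238 CPM with Aβ42 and 2575 to 2628 CPM with Aβ40, of which Vim and Clu, also transcribed by other cells, made up the largest part. Of these, 6 were higher and 1 was lower with Aβ42, and 4 were higher and 1 was lower with Aβ40. The markers Slc4a4 (log2 fold changes 1.02 with Aβ42 and 1.92 with Aβ40), Sox9 (0.61 and 0.71), Id3 (1.79 and 1.21) and Clu (1.65 and 1.49) were called higher with both fibrils. Aldoc (0.76) and Vim (0.46) were called higher with Aβ42 alone, and Ndrg2 was called lower with both fibrils (-0.57 and -0.61). Gfap was at 36.9 ± 6.03 CPM in controls, 34.3 ± 8.53 with Aβ42 and 27.1 ± 2.47 with Aβ40, and S100b was at 50.3 ± 6.38, 45.6 ± 5.82 and 52.2 ± 3.15 CPM, and neither was called, while Aldh1l1 and Aldh1a1 were at or under 3 counts in every control library. The microglial markers summed to 7572 to 8874 CPM in controls, 2652 to 3048 with Aβ42 and 2848 to 3054 with Aβ40. Markers of other cells moved as well. Of the 10 oligodendrocyte lineage markers, summing to 2575 to 2854 CPM in controls and 3006 to 3931 CPM in treated libraries, 6 were higher and 1 was lower with Aβ42, and 5 were higher and 1 was lower with Aβ40, led by Cspg4 (2.24 and 1.47). The 6 fibroblast and meningeal markers summed to 59.8 to 75.1 CPM in controls, 137.5 to 164.5 CPM with Aβ42 and 121 to 128 CPM with Aβ40, and among them Dcn was at 0.427 ± 0.41 CPM in controls, 71.1 ± 12 with Aβ42 and 64.7 ± 3.82 with Aβ40, while Col1a2 was at or under 3 counts in every Aβ40 library. The 8 neuronal markers summed to 571 to 639 CPM in controls, 591 to 828 with Aβ42 and 863 to 901 with Aβ40. Of them 2 and 3 were higher, of the 3 ependymal markers 1 and 2 were higher, and of the 6 endothelial markers 3 and 2 were lower, with 1 higher with Aβ40. The part of astrocyte RNA and of RNA from these other cells in the microglial levels of the 9 genes was not tested.

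Between the fibrils, microglia had 3 members lower with Aβ42 than with Aβ40 and none higher, where 9.01% of all tested genes were lower and 11.3% were higher. Slc1a2 differed by a log2 value of -1.61 ± 0.42 (adjusted p = 0.0272), Aqp4 by -0.91 ± 0.24 (0.0284) and Gja1 by -0.82 ± 0.22 (0.0293). All 3 calls were lost when Aβ42 replicate 2, Aβ42 replicate 3 or Aβ40 replicate 1 or 3 was left out (adjusted p from 0.0804 to 0.142), and those of Aqp4 (0.08) and Gja1 (0.0874) also without Aβ40 replicate 2. Without Aβ42 replicate 1 there were 5 calls, with Glul (-0.30, adjusted p = 0.0148) and Atp1b2 (-0.45, adjusted p = 0.00527) added. In a fit of the 6 compared libraries alone, Slc1a2 did not pass the filter on low counts and no member was called.

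The responses of the cell types were compared by the interaction of cell type and treatment over all 18 libraries. With Aβ42, 3 members had a higher response in astrocytes than in microglia (17.9% of all genes) and 4 a lower one (19.3%), and with Aβ40 these were 2 (16.5%) and 3 (16%). Glul fell in microglia but not in astrocytes by the calls, and the difference of the log2 fold changes was 1.05 ± 0.18 with Aβ42 (adjusted p = 0.000153) and 0.89 ± 0.18 with Aβ40 (adjusted p = 0.000867). Slc1a3 fell in both cell types, but by more in microglia, by 0.91 ± 0.16 (adjusted p = 0.000173) and 1.10 ± 0.17 (adjusted p = 4.73e-05) on the log2 scale. Gja1 fell in astrocytes and rose in microglia, with differences of -1.29 ± 0.30 (adjusted p = 0.00199) and -2.21 ± 0.30 (adjusted p = 1.23e-05).

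Atp1b2 fell in both cell types and further in astrocytes, whereas Kcnj10 fell in astrocytes and was not called in microglia. The differences for Kcnj10 were -1.32 ± 0.38 with Aβ42 (adjusted p = 0.00952) and -1.55 ± 0.39 with Aβ40 (adjusted p = 0.00463), and those for Atp1b2 were -0.82 ± 0.20 (adjusted p = 0.00327) and -0.96 ± 0.20 (adjusted p = 0.00122). For Slc1a2 the difference was 2.24 ± 0.43 with Aβ42 (adjusted p = 0.000406) and 0.55 ± 0.43 with Aβ40 (adjusted p = 0.361), and for Aqp4 it passed the test with neither fibril. The interaction of Slc6a11 with Aβ42, -4.71 ± 0.60 (adjusted p = 5.4e-06), rests in microglia on counts of 3 or fewer in each control library, so that its size depends on how the fit treats low counts.

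The other genes of the same pathways were read from 4 lists, beside the 16.5% of all tested genes that were higher and 20.4% that were lower with Aβ42 in astrocytes, and the 14.9% and 18.4% with Aβ40. In the list of glutamate, GABA and glycine transport and metabolism, 8 of 19 tested genes were higher and 5 were lower with Aβ42 in astrocytes, and 7 were higher and 5 lower with Aβ40, with medians of 0.36 and 0.13 on the log2 scale, and the share that was lower was near that of all genes. A further glutamate transporter, Slc1a1 (EAAC1), rose from 24.0 ± 4.74 CPM to 60.2 ± 1.27 with Aβ42 (log2 change 1.31, adjusted p = 5.09e-05) and 57.0 ± 0.79 with Aβ40. The neutral amino acid transporters Slc1a5 and Slc38a2 and the mitochondrial glutamate carrier Slc25a18 rose with both, by 1.78, 1.02 and 1.02 with Aβ42. The glutamine transporter gene Slc38a3 (SNAT3), which releases glutamine from astrocytes, fell by 2.74 with Aβ42 (adjusted p = 4.67e-06) and 2.32 with Aβ40. Slc38a1, another glutamine transporter gene of the cell surface, fell by 1.35 and 1.03. Of the metabotropic glutamate receptors, Grm5 fell by 1.91 and 1.32 and Grm3, at 0.383 ± 0.16 CPM in controls, rose by 1.89 and 2.32.

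In the list of potassium, sodium and bicarbonate handling, 2 of 18 tested genes were higher and 8 were lower with either fibril, with medians of -0.70 and -0.58. Kcnj16 (Kir5.1), which forms channels together with Kcnj10, fell from 12.1 ± 2.79 CPM to 0.722 ± 0.37 and 1.201 ± 0.59. The background potassium channels Kcnk10 and Kcnk1 and the bicarbonate transporter Slc4a4, which is also on the astrocyte marker list, were lower with both fibrils, and the potassium-chloride cotransporter Slc12a7 rose by 1.002 and 1.02. Fxyd1, a regulator of the pump, fell by 1.17 with Aβ42 (adjusted p = 0.0438) and had a log2 fold change of -0.60 with Aβ40 (adjusted p = 0.287).

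In the list of water, cell volume and endfoot anchoring, 2 of 13 tested genes were higher and 4 were lower with either fibril, so that these counts do not set the list apart from all genes. While Aqp4 rose or was not called, the glycerol and water channel Aqp9 fell from 14.7 ± 1.16 CPM to 2.78 ± 0.24 and 3.37 ± 0.33, Dmd (dystrophin) fell by 1.85 and 1.69, Mlc1 fell by 1.203 and 0.835, and the syntrophin Sntb1 rose by 1.21 and 1.27. In the list of gap junctions, hemichannels and junction scaffold, none of 7 tested genes was higher and 5 were lower with either fibril. They included Ocln (occludin), which fell by 1.81 and 1.15, the pannexin Panx2 (1.55 and 1.46), the scaffold Tjp1 (0.66 and 0.65) and the connexin Gjb2 (1.29 and 0.82). No gene of the 4 lists differed between Aβ42 and Aβ40 in astrocytes.

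**Figure D5:**
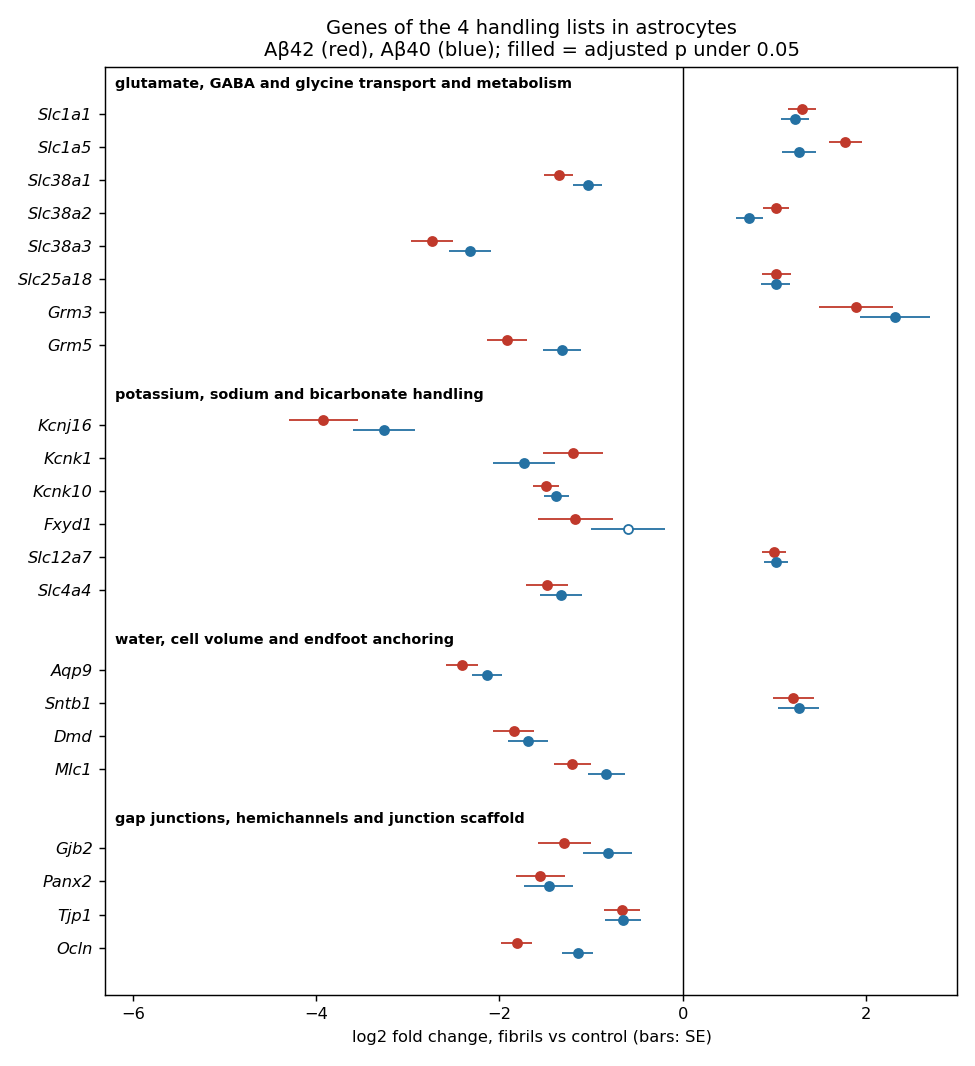
Log2 fold change in astrocytes with Aβ42 (red) and Aβ40 (blue) fibrils of list genes named by rule, grouped by list, with bars of 1 SE and filled points for an adjusted p under 0.05. Kcnj16 was the lowest of the genes shown, at -3.92 and -3.26, and Fxyd1 with Aβ40 was the only point shown that was not called.

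In microglia, where 27.1% of all genes were higher and 26.6% lower with Aβ42 and 19.6% and 21.4% with Aβ40, several counts of the lists were near those shares. The glutamate list had 8 genes higher and 3 lower of 18 tested with Aβ42 and 6 higher and 3 lower with Aβ40, the potassium list had 6 higher and 4 lower of 16 with Aβ42 and 3 and 4 with Aβ40, the water list had 3 and 2 of 9 with either, and the gap junction list had 2 and 1 of 7 with Aβ42 and 3 and 1 with Aβ40.

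Over the 9 astrocyte libraries, the genes whose log2 CPM was most like that of a member were found by Pearson's r, as a description of libraries that fall into 3 groups and share control cultures. Atp1b2 was most like Ndrg2 (r = 0.996), an astrocyte marker, and Olfml2b (0.995), and Kcnj10 was most like the receptor Notch3 (0.995) and Fbxo41 (0.986). Slc6a11 was most like the mitotic spindle genes Spag5 (0.996) and Kif20a (0.996), Slc1a3 was most like Calb1 (0.995) and Cnn3 (0.993), and Slc1a2 was most like Golga3 (0.998) and the laminin chain Lamc1 (0.994). For Aqp4 these were Anxa4 (0.991) and Rwdd2a (0.986), for Gja1 Timm8a1 (0.990) and Bola3 (0.989), and for Glul Tmsb10 (0.982) and Gnai2 (0.956). An r over 0.9 was reached by 9.96% of all tested genes for Slc6a11 and by 0.308% for Glul, whose levels did not follow the groups.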

How the data were processed

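Primary rat astrocytes and microglia were sequenced from stranded mRNA libraries, 18 in all. Per the labels, reads were handled with STAR, Salmon and DESeq2 on the rn5 assembly, and the authors deposited 1 table of whole-number counts per gene symbol and library, not normalized. How the counting used strand is not given in the sources used here. Reads on no gene or on several, 26.0% to 34.2% of the reads in astrocyte libraries and 21.7% to 24.5% in microglia libraries, were left out. The 9 genes and the lists were chosen with earlier results of these data known.

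Counts were scaled by TMM and filtered by filterByExpr, and the 9 libraries of a cell type, or all 18 for comparisons between cell types, were fitted by edgeR 4.0.16 (glmQLFit, glmQLFTest) in R 4.3.3, and p-values were adjusted by Benjamini-Hochberg over every gene that passed the filter. The SE is the log2 fold change divided by the root of the F statistic, and 95% intervals use the fit's degrees of freedom. Count ratios within libraries had 0.5 added to each count and were compared by two-sided exact permutation of 6 treated against 3 control libraries. Ratios of summed counts near the detection limit have exact conditional binomial intervals. Levels in log2 CPM had 0.5 added. Genes were named by rule: the 9 members, from each list the 3 called genes with the smallest p with each fibril in astrocytes and those called at 2-fold or more, the 2 genes most like each member, and marker genes with the most counts or at the detection limit. Of the list genes so named, 2 are not reported here, and the lists' counts and medians are over all their tested genes. Procedures were tested on simulated data. Alternatives were DESeq2 1.42.0 size factors or its Wald test, library totals, other filters (none, or 10 counts in every library), fits of the compared groups alone, a replicate block, 5 added to counts in ratios, and leaving out each library.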

Additional observations from a re-analysis of the deposited data

Results flagged for a closer look

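These are members whose response to a fibril differed between astrocytes and microglia by edgeR's interaction test over 18 libraries, given as the log2 response in astrocytes minus that in microglia. With Aβ42, the differences were 2.24 for Slc1a2, 0.91 for Slc1a3, 1.05 for Glul, -1.32 for Kcnj10, -1.29 for Gja1, -4.71 for Slc6a11 and -0.82 for Atp1b2, with adjusted p-values from 5.4e-06 to 0.00952. With Aβ40, they were 1.10 for Slc1a3, 0.89 for Glul, -1.55 for Kcnj10, -2.21 for Gja1 and -0.96 for Atp1b2, with adjusted p-values from 1.23e-05 to 0.00463. All 12 kept their call when single libraries were left out. For Slc6a11 the microglial controls had 3 counts or fewer each. In the same cultures, the summed microglial markers fell with treatment in both cell types, and the part of that in these differences was not tested. With 3 libraries a group, no group was tested for single outlying libraries.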

How the results depend on the processing

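Of the 964 recomputed member values, 911 kept their direction and their side of the threshold, 32 lost and 7 gained a call, and 14 changed sign, of which none was called in either fit. Of 125 recomputed counts and ratios, other than those that left out a library, 117 stayed within 1.5 times the reported count or kept their call and direction.

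In astrocytes, Aβ42 against Aβ40 gave 10 genes in the fit of all 3 groups, 141 with DESeq2, 6 with 10 counts or more in every library, 265 with the compared groups alone and 0 with the replicate block, with 0 members called in each. In microglia, the compared groups alone gave 106 genes and 0 members for Aβ42 against Aβ40 and the block 752 genes, where the fit of all 3 groups gave 2198 genes and 3 members. The replicate numbers were not used as pairs in the main fits. Only 2 of 9 same-number pairs in astrocytes and 1 of 9 in microglia had deviations that correlated over 0.1 (range -0.586 to 0.403). The deviations sum to 0 within each group of 3, so that these correlations cannot exclude a pairing by number. Astrocyte pairs of unlike number ranged from -0.519 to 0.577. Control replicate 2 correlated with Aβ42 replicate 3 (0.577) and Aβ40 replicate 1 (0.535), and these treated libraries with each other (0.567). Aqp4 and Gja1 were highest of their groups in these libraries. Whether libraries were matched in another order is not given in the labels and was not tested. Under the block, Gja1 with Aβ42 in astrocytes (log2 fold change -0.53, adjusted p = 0.0719) and Slc1a2 between the fibrils in microglia (-1.52, adjusted p = 0.0637) were not called, and no other member's call changed.

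Leaving out each library gave 3371 to 5556 genes and 5 to 6 members in astrocytes with Aβ42, 2955 to 4961 and 5 to 7 with Aβ40, and 0 to 4 and 0 between the fibrils. In microglia the ranges were 4659 to 7838 genes and 3 to 4 members with Aβ42, 3608 to 4127 and 4 to 6 with Aβ40, and 99 (without Aβ42 replicate 3) to 6004 (without Aβ42 replicate 1) and 0 to 5 between the fibrils. Between the cell types, where this was added after the data were seen, they were 3723 to 5444 and 7 to 8 with Aβ42, 3196 to 4126 and 5 to 6 with Aβ40, and 7494 to 8487 and 7 to 8 untreated, counts in which Gjb6 takes part where it passed the filter. The log2 ratio of Slc1a2 to Slc1a3 stayed at 2.20 to 2.47 and that of Atp1b2 to Atp1b1 at -1.26 to -0.83. With 2 control libraries the smallest exact p is 0.0714, so that those without a control could not pass. The ratio of Gjb6 to Gja1 ranged from -0.010 to 0.329, and was -0.14 with 5 added to the counts.

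Signs changed only near 0. For Kcnj10 with Aβ42 in microglia the value was 0.0057 with DESeq2 size factors, 0.012 with 10 counts in every library, 0.010 with the compared groups alone and 0.025, 0.045 and 0.11 without control replicates 1 and 3 and Aβ42 replicate 1. When single libraries were left out, the value ranged from -0.031 to 0.296 for Glul with Aβ42 and from -0.078 to 0.091 for Kcnj10 between the fibrils in astrocytes (-0.068 without Aβ40 replicate 1). It ranged from -0.032 to 0.441 for Aqp4 with Aβ42 and from -0.0064 to 0.124 for Slc1a3 between the fibrils in microglia. Between the cell types it ranged from -0.060 to 0.203 for untreated Glul and from -0.018 to 0.461 for the Aβ42 response of Aqp4. The exception was the Aβ40 response of Slc6a11, from -3.055 to 1.805, the latter without Aβ40 microglia replicate 3, where the 2 libraries left had 0 counts. Depth limits Gjb6 and, in microglia, Slc6a11 and Slc1a2.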
